A study of Mus musculus with 16 samples.

Results

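Ribosome footprints that lay past the stop codon, in 3′ untranslated regions (3′UTRs), were examined in mouse neural stem cells (mNSC). Members were all entries of the P-site table whose P-site, the ribosomal site that holds the growing peptide's tRNA, was annotated as 3′UTR. They numbered 128285 of 2859681 entries and lay on 10430 of 74042 transcripts. Of the other entries, 1770670 were in coding sequences and 838037 lay on transcripts without an annotated coding sequence, and the rest were in 5′UTRs. No table that pairs the mouse transcript identifiers with genes was used here, so a transcript per gene could not be chosen, transcripts are given by identifier and no transcript or stop codon sequence is printed.

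Neural stem cells were kept in self-renewing conditions, which the labels call GF, and were either given TAPIR, labelled gRNA, or not, labelled control. The labels explain neither TAPIR nor the target of the guide RNA, and give no strain or age of origin for the cells, so no targeted gene could be checked. Total RNA was sequenced in 6 gRNA and 6 control libraries, and each of the 2 batches in the labels held 3 of each. Footprints came from a ribosome pulldown in 2 gRNA and 2 control libraries, with 1 of each per batch. None of the 4 library names in the P-site table matched a label, so the libraries are numbered 1 to 4 in the table's own numbering, have no group, and enter no comparison of gRNA with control. Library 1 held 2174905 entries, library 2 held 250755, library 3 held 331338 and library 4 held 102683.

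At a stop codon, the release factor eRF1 with its GTPase partner eRF3 frees the finished protein, and ABCE1 then splits the ribosome so that both subunits leave the mRNA. Footprints past the stop can come from ribosomes that read through the stop codon and stay in the coding frame, from ribosomes that were not recycled, or from translation that starts anew in the 3′UTR. A bound protein or a structured RNA can protect fragments too, and a region that is 3′UTR in a transcript can be coding sequence in another transcript of the same gene. Reading frame, footprint length, distance from the stop and the other transcripts that hold the same footprint are measures that differ between such sources.

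Footprints in 3′UTRs made up a like share of the entries in all 4 libraries. Of the entries in coding sequences and 3′UTRs together, 6.70% lay in 3′UTRs in library 1 (95% Wilson interval 6.66% to 6.74%), 7.02% in library 2 (6.90% to 7.15%), 6.74% in library 3 (6.64% to 6.85%) and 7.52% in library 4 (7.31% to 7.73%). The median over the libraries was 6.88%. Library 4, the smallest, was the highest, and the intervals of libraries 1 and 3 overlapped. These intervals cover counting error only and take entries as independent, although a footprint can stand under several transcripts.

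Most of these entries were also listed as coding. Footprints that several transcripts share were found by runs of 6 neighbouring occupied positions that had the same spacing and the same libraries and footprint lengths under different transcripts. Such runs could be tested for 124436 of the 128285 3′UTR entries. Of these, 103597 (83.3%, 95% Wilson interval 83.0% to 83.5%) also stood in the coding sequence of another transcript. The share was 84.5% in library 1, 79.2% in library 2, 81.9% in library 3 and 71.5% in library 4.

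The remaining 20839 tested entries were not found in another coding sequence. Of these, 9101 were shared only with other 3′UTRs, 3697 stood in a transcript without a coding sequence and 107 stood in a 5′UTR. For the other 7934 no matching run was found under another transcript.

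The reading frame of the shared footprints was taken relative to both transcripts that list them. A P-site was counted as in frame when it kept the codon phase of the coding sequence that ends at the stop. In coding sequences, 53.1% of P-sites were in frame in library 1, 44.4% in library 2, 48.2% in library 3 and 41.0% in library 4. In 3′UTRs the shares were 27.5%, 30.6%, 29.5% and 31.9% in the same order, below equal shares of the 3 frames in every library. With the P-site a fixed 12 nt from the 5′ end of the footprint, in place of the 13 or 14 nt in the table, the direction turned: 11.7%, 17.4%, 14.2% and 18.8% were in frame in coding sequences and 39.6%, 37.4%, 38.9% and 37.3% in 3′UTRs, above equal shares in every library. With the deposited P-sites, library 1, the most strongly phased in coding sequences, was the lowest in 3′UTRs.

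When the shared entries were placed in the frame of the other transcript's coding sequence, 55.7% were in frame in library 1 (95% Wilson interval 55.3% to 56.0%), 45.6% in library 2, 49.0% in library 3 and 41.4% in library 4. In the frame of their own transcript the same entries gave 26.6%, 30.3%, 28.7% and 30.7%. In the first case the shares were close to those of coding sequences in the same library, and in the second they were not. At the fixed 12 nt this held too, with the direction turned: 8.58%, 14.99%, 11.2% and 15.1% of the shared entries were in frame in the other coding sequence, against 40.4%, 38.4%, 39.98% and 38.9% in their own frame. Coding sequences of representative transcripts, described further on, gave 9.32%, 15.2%, 11.8% and 16.7% at that offset. What was alike at both offsets is the likeness to coding sequences, not which frame is higher. The shared entries are themselves listed as coding in the other transcript, so this likeness is largely fixed by how they were found. The coding frame of the other transcript was the same as the carried-on frame of the 3′UTR for 14.2% of the shared entries, and was shifted by 1 nt for 41.4% and by 2 nt for 44.4%. Pairs in the same frame were thus fewer than those with either shift.

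**Figure D1:**
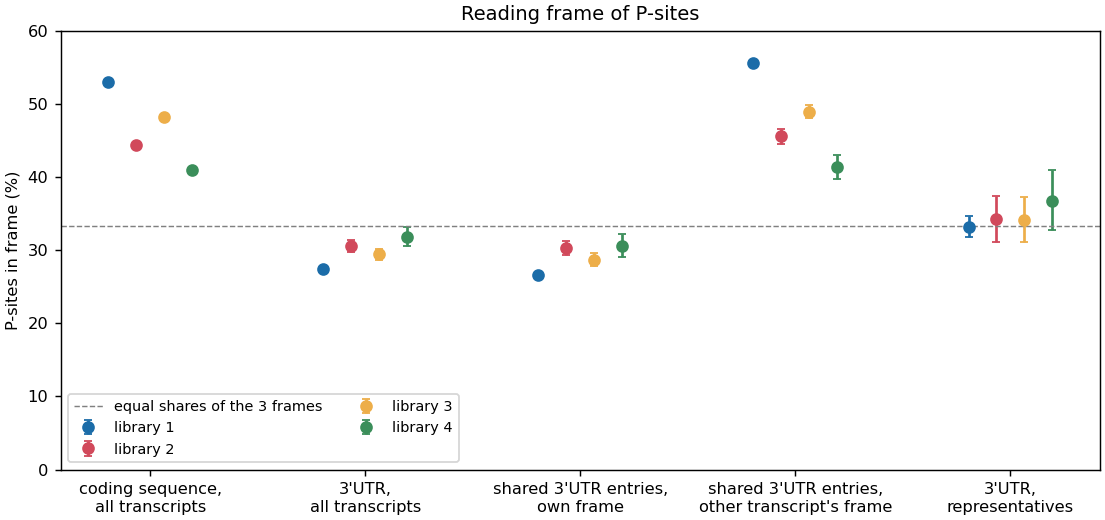
P-sites in frame (%, y axis) in the 4 footprint libraries for 5 sets of entries (x axis), with 95% Wilson intervals and a dashed line at equal shares of the 3 frames. Shared 3′UTR entries lie between 26.6% and 30.7% in their own frame and between 41.4% and 55.7% in the frame of the other transcript's coding sequence, and the intervals of the representative 3′UTRs meet the dashed line.

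Directly past the stop, in-frame footprints were not in excess with the deposited P-sites. At 1 to 30 nt past the stop, 24.4% of P-sites were in frame in library 1 (95% Wilson interval 23.2% to 25.7%, 4615 entries), 24.6% in library 2 (20.9% to 28.6%, 480 entries), 30.1% in library 3 (26.6% to 33.7%, 639 entries) and 27.2% in library 4 (21.7% to 33.5%, 217 entries). From 31 to 100 nt the shares were 27.2%, 28.3%, 30.01% and 30.4%, and beyond 100 nt 27.7%, 31.3%, 29.3% and 32.3%. At the fixed 12 nt, the median share in frame over the libraries was 42.5% at 1 to 30 nt, against 25.9% with the deposited P-sites. The direction relative to equal shares thus turns with the offset here as well. At the fixed 12 nt only 11.7% to 18.8% of P-sites in coding sequences were in frame. The in-frame class at that offset is therefore not the one that coding footprints favour, and 42.5% is no excess in the coding frame.

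3′UTR footprints were spread far from the stop. The median distance was 351 nt in library 1, 356 nt in library 2, 345.5 nt in library 3 and 377 nt in library 4, and 17.0%, 15.8%, 17.0% and 15.6% of the entries lay within 100 nt. The farthest lay 60045 nt past the stop.

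A small set of transcripts with short annotated coding sequences held most 3′UTR footprints. Of the 41400 transcripts with an entry in the coding sequence or 3′UTR, 18056 had at least 20 such entries over the 4 libraries. The 23344 transcripts below this minimum held 16571 of the 3′UTR entries. Of the 452 transcripts with 20 entries, just inside the minimum, 26.1% had an entry in the 3′UTR and 6.20% had over 50% there, with 7.70% of their entries in the 3′UTR. Of the 462 with 19 entries, just outside, these values were 24.7%, 7.79% and 9.17%.

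Of the 18056 transcripts, 12376 (68.5%) had none in the 3′UTR and 3526 (19.5%) had up to 10% there. Those transcripts had long coding sequences, with medians of 1368 nt and 1500 nt. In 1249 transcripts (6.92%) over 50% of the entries lay in the 3′UTR, and these held 79.5% of the 3′UTR entries of the 18056. Their annotated coding sequence had a median of 258 nt (quartiles 168 and 465 nt), and 94.5% of their 3′UTR entries also stood in the coding sequence of another transcript. In 274 transcripts every entry lay past the stop; there the median coding length was 175.5 nt and 98.6% of the entries were in another coding sequence. By contrast, in the transcripts with up to 10% in the 3′UTR only 8.87% of the 3′UTR entries were in another coding sequence. Coding length enters the share directly, since a short coding sequence has fewer positions to hold a footprint.

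**Figure D2:**
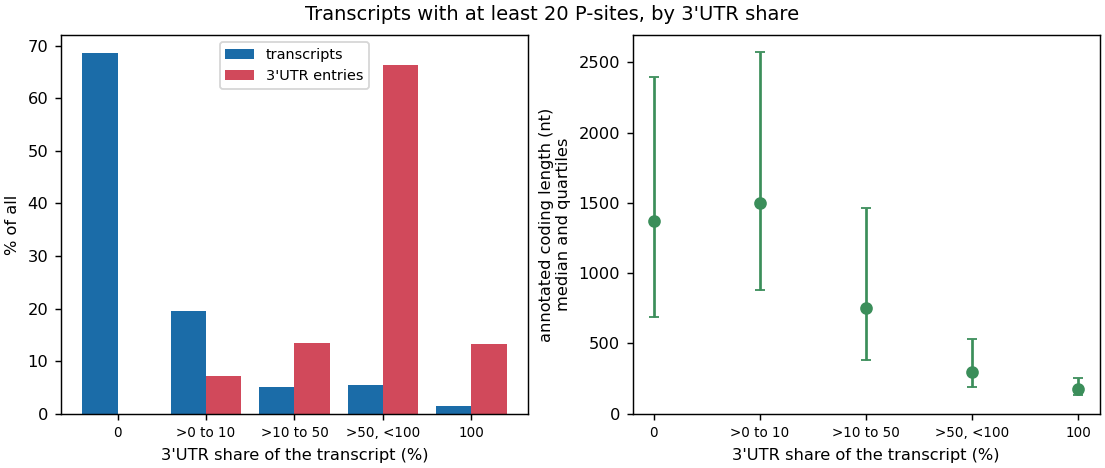
Transcripts with at least 20 entries, by the percentage of their entries in the 3′UTR (x axis). Left, percentage of transcripts and of 3′UTR entries in each class (y axis, bars); right, annotated coding length in nt (y axis) as median and quartiles. Transcripts with no 3′UTR entry make up 68.5%, and the class at 100% has a median coding length of 175.5 nt.

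ENSMUST00000219374, annotated with a coding sequence of 249 nt, shows the pattern. It held 489 3′UTR entries in library 1, 82 in library 2, 76 in library 3 and 21 in library 4, against 13, 1, 2 and 1 in its coding sequence. In each library at least 95.5% of its entries lay past the stop. All 668 of its 3′UTR entries also stood in the coding sequence of another transcript, and 367 of them (54.9%) were in frame there. In its own frame 197 (29.5%) were in phase and 367 were shifted by 1 nt.

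The share of a transcript was alike between libraries. Across transcripts with at least 20 entries in both libraries of a pair, Pearson's r of the 3′UTR share lay between 0.986 and 0.995 over the 6 pairs, with 477 to 2418 transcripts in a pair. This is a description across transcripts, which share footprints, annotation and coding length and are not independent. In the representative transcripts described further on, r lay between 0.943 and 0.988. Only 1 or 2 of them in a pair were above 50% in both libraries.

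To look at 3′UTRs that are not another transcript's coding sequence, 1 representative transcript was taken from each set that shares a run, in order of coding entries. With at least 20 entries, 6121 transcripts remained, and they held 6293 3′UTR entries. In them 0.825% of entries lay in the 3′UTR in library 1 (95% Wilson interval 0.800% to 0.851%), 1.58% in library 2 (1.48% to 1.69%), 1.28% in library 3 (1.20% to 1.36%) and 2.42% in library 4 (2.22% to 2.63%). Every library was thus below its own share over all transcripts. Representatives were picked for many coding entries, a choice that by construction favours a low share. Of the 6121, 4444 (72.6%) had none in the 3′UTR, 1525 had up to 10%, 137 had 10% to 50% and 15 had over 50%.

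**Figure D3:**
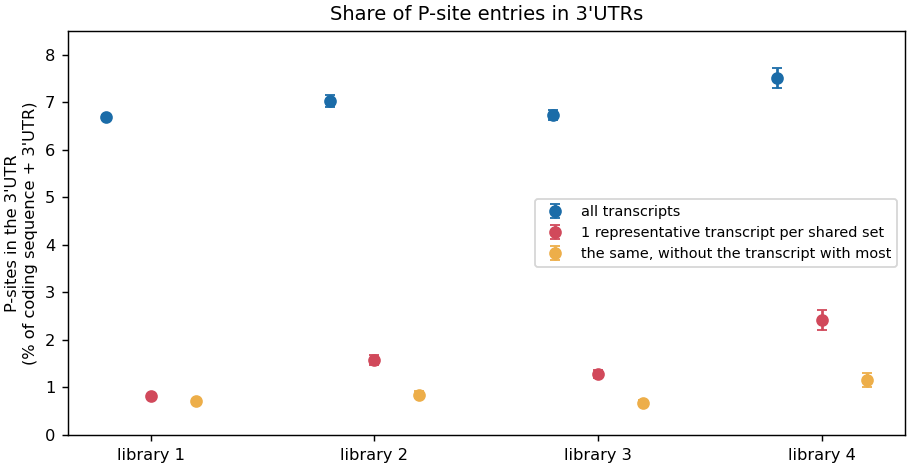
P-sites in the 3′UTR as a percentage of those in coding sequence and 3′UTR (y axis) in the 4 footprint libraries (x axis), with 95% Wilson intervals. Over all transcripts the values run from 6.70% to 7.52%, in representative transcripts from 0.825% to 2.42%, and without the transcript with most 3′UTR entries from 0.679% to 1.15%.

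Footprint density was far lower past the stop codon than before it in the representative transcripts. Over 30 nt in the coding sequence, ending 19 nt before the last base of the stop codon, library 1 held 13220 entries, library 2 held 1692, library 3 held 2353 and library 4 held 723. Over the first 30 nt past the stop they held 338, 36, 41 and 30. The density past the stop was thus 2.56% of that before it in library 1 (2.30% to 2.85%), 2.13% in library 2 (1.53% to 2.96%), 1.74% in library 3 (1.28% to 2.37%) and 4.15% in library 4 (2.89% to 5.97%), a drop of 39.1-fold, 47.0-fold, 57.4-fold and 24.1-fold. Over all transcripts the corresponding densities were 11.2%, 10.3%, 9.98% and 11.7%. Representatives were picked for many coding entries, and transcripts sharing a run with them were left out. That choice favours a low density past the stop, so the drop and the contrast with all transcripts depend on it.

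**Figure D4:**
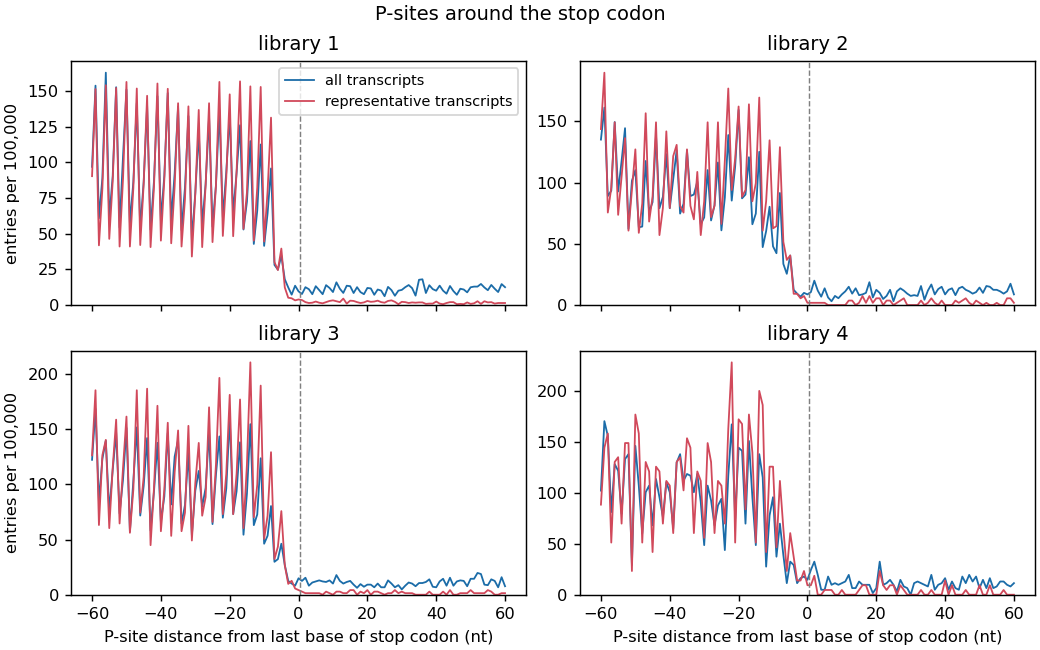
Entries (y axis) by distance of the P-site from the last base of the stop codon in nt (x axis), in each footprint library. All transcripts and representative transcripts are each scaled to their own coding and 3′UTR entries in that library. Before the stop, peaks recur every codon in library 1. Past the dashed line the representative transcripts lie below all transcripts at most positions, with exceptions in library 4, and over the first 30 nt they hold 1.74% to 4.15% of the density before the stop. Representatives were picked for many coding entries, which favours a low density past the stop.

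Over the whole 3′UTR of the representative transcripts, no frame preference could be resolved at this depth in any library. Here 33.2% of P-sites were in frame in library 1 (95% Wilson interval 31.8% to 34.7%, 4006 entries), 34.2% in library 2 (31.1% to 37.5%, 859 entries), 34.1% in library 3 (31.1% to 37.3%, 909 entries) and 36.8% in library 4 (32.8% to 41.0%, 519 entries). All 4 intervals include equal shares of the frames, and so do those at the fixed 12 nt, where the shares were 33.4%, 32.6%, 31.9% and 30.4%. The coding sequences of the same transcripts gave 55.1%, 45.9%, 49.8% and 42.0%. At 1 to 30 nt past the stop, 36.4% of 338 P-sites were in frame in library 1 (31.4% to 41.7%), and the other libraries had between 30 and 41 entries there, too few to resolve a frame. From 31 to 100 nt, 38.1% of 446 P-sites were in frame in library 1 (33.7% to 42.7%), an interval that lies just above equal shares. The other libraries gave 32.4% of 68, 29.4% of 51 and 28.6% of 21 in that window, with intervals that include equal shares. P-sites of 1 transcript often lay together, so these intervals are too narrow.

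Footprints in these 3′UTRs were also shorter. Footprints of 31 or 32 nt, the longest that the table holds, made up 51.9% of coding entries in library 1 of the representative transcripts and 34.5% of 3′UTR entries (95% Wilson interval 32.99% to 35.9%). In library 2 the shares were 40.4% and 27.1% (24.3% to 30.2%), in library 3 44.1% and 27.8% (25.02% to 30.8%), and in library 4 34.4% and 24.5% (21.0% to 28.4%). The 3′UTR was lower in all 4 libraries, outside the counting interval in each. Shared 3′UTR entries had the lengths of coding footprints instead: 52.1%, 39.7%, 43.8% and 34.1% were of 31 or 32 nt. They were found by matching to coding entries of the same lengths, so this likeness is fixed in advance.

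**Figure D5:**
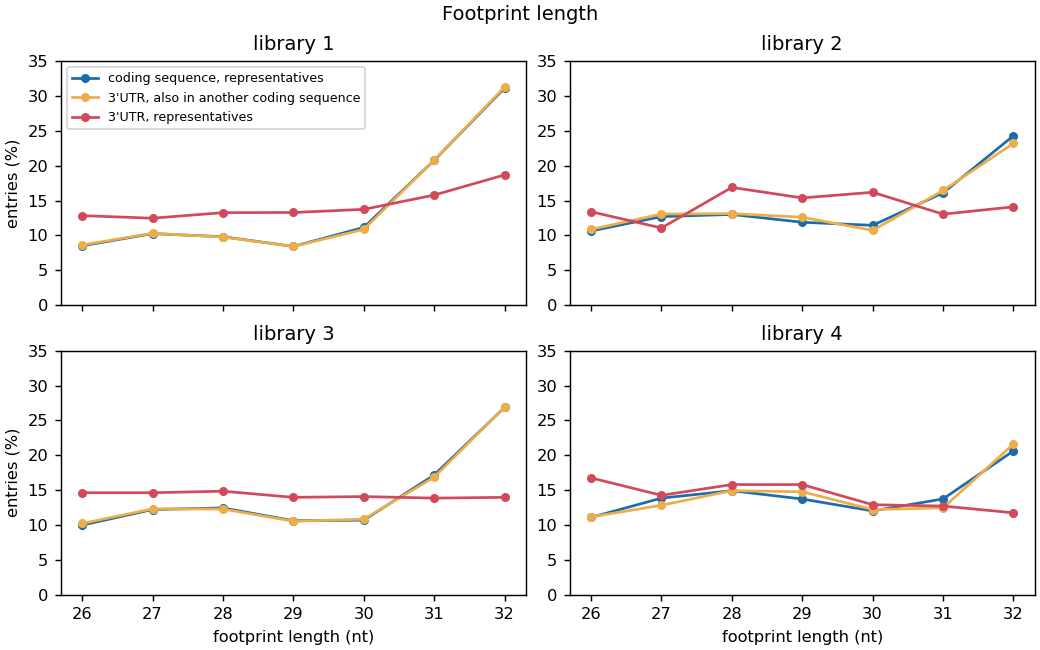
Entries of each footprint length (%, y axis) by length in nt (x axis) in each footprint library, for coding sequences of representative transcripts, 3′UTR entries that also stand in another coding sequence, and 3′UTRs of representative transcripts. The first 2 lines nearly coincide, with 34.1% to 52.1% of the shared entries at 31 or 32 nt, and the third is flatter, with 24.5% to 34.5% at these lengths. Shared entries were matched to coding entries on length.

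Within a 3′UTR the footprints often lay close together. In 83 representative transcripts with at least 10 3′UTR entries, the densest window of 10 nt held a median of 54.2% of them, and in 49 (59.0%) it held at least 50%. In 5 of them every 3′UTR entry lay in such a window. Coding sequences of representative transcripts with 10 to 40 entries had a median of 31.4%, and 18.0% of those 2166 reached 50%. The numbers of entries per transcript are not matched between the sets. Representative transcripts had at least 20 entries, mostly with none in the 3′UTR, so few coding sequences in the set can lie near its lower bound. Many of the 83 3′UTRs held little more than 10 entries. Fewer entries by themselves raise the share in the densest window. The comparison therefore cannot show whether 3′UTR footprints lie closer together than coding footprints.

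A single transcript decided much of the total. ENSMUST00000038863, with an annotated coding sequence of 2709 nt, held 1629 of the 6293 representative 3′UTR entries (25.9%), and 42 in its coding sequence. It held 524 3′UTR entries in library 1, 401 in library 2, 429 in library 3 and 275 in library 4. The values were near each other although library 1 had many more entries in all, so the transcript made up 13.1% of the representative 3′UTR entries in library 1 and 46.7%, 47.2% and 53.0% in libraries 2, 3 and 4. Identical footprints count once in the table, which limits how many entries a short stretch can hold.

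Those entries covered 264 positions between 126 and 507 nt past the stop, a broad block, with 10.4% in the densest 10 nt. In frame were 572 (35.1%), with no excess of 1 frame. The transcript shared runs with 4 transcripts without a coding sequence, in which 34.2% of these entries also stood, and with 2 coding transcripts. Largely the same footprints, in runs shared with it, stood under ENSMUST00000217116, which is not a representative and has a coding length of 1488 nt. It held 540, 401, 431 and 275 3′UTR entries in libraries 1 to 4, against 16, 3, 1 and 0 coding entries. That was the highest number of 3′UTR entries on any transcript, 1647 in all, and 1.09% of them stood in another coding sequence.

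Without ENSMUST00000038863 the 3′UTR share of the representative transcripts was 0.718% in library 1, 0.850% in library 2, 0.679% in library 3 and 1.15% in library 4. The spread between the libraries was smaller, and the order changed, with library 3 now the lowest. The share of 31 or 32 nt footprints in the 3′UTR was 34.98%, 25.8%, 27.7% and 22.5% without it, close to the values with it. At the other end, 886 of the 1677 representative transcripts with a 3′UTR entry held a single entry.

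ENSMUST00000013842, with a coding sequence of 393 nt, held the most in-frame P-sites within 100 nt of the stop among representative transcripts. It had 55 3′UTR entries in library 1, 7 in library 2, 4 in library 3 and 5 in library 4, against 180, 20, 15 and 8 coding entries. Of its 71 3′UTR entries (24.2% of all its entries), 33 lay within 100 nt, and 15 of those 33 (45.5%) were in frame. None of the 71 was found in another coding sequence. It was chosen for this number, which is given as a description.

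The mRNAs of the factors that end translation, recycle ribosomes and rescue stalled ones were measured in the RNA-seq libraries, where groups are labelled. These held 8414028 to 19454390 counts in genes, with a median of 14918917. The labelled cell type was checked on its markers, in CPM (counts scaled to the library's total, adjusted by TMM normalization). The neural stem cell genes Sox2 and Nes lay between 126 and 192 and between 450 and 803 CPM. By contrast, Mog, Aif1 and Ptprc, of oligodendrocytes and microglia, stayed at or below 0.627 CPM. The neuronal gene Map2, at 600 to 919 CPM, was also high. Whether the libraries within a group are separate cultures is not in the labels, and p-values then measure only how these libraries vary, which may be technical.

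No gene of that group was called between gRNA and control. With edgeR's quasi-likelihood test with batch as a term, 0% of the 17704 genes tested had an adjusted p under 0.05 (smallest adjusted p = 0.9998). At an unadjusted p under 0.05 there were 230 genes, and DESeq2 called 0 with 216 at that level. All 35 genes of the list were tested. Of these, 21 had a log2 fold change of gRNA over control above 0 and 14 below, with a median of 0.01. Over all 17704 genes tested, 8441 lay above 0 and the median was -0.01. None of the 35 passed an unadjusted p of 0.05. In bulk RNA, fewer cells that express a gene and less of its RNA per cell cannot be told apart.

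The release factor genes lay close to 0. Etf1, which encodes eRF1, ranged from 196 to 315 CPM in the 6 control libraries (median 236) and from 218 to 280 CPM in the 6 gRNA libraries (median 226). The groups overlapped, and its log2 fold change was 0.00 (SE 0.11, edgeR adjusted p = 0.9998). Gspt1, one of the genes for eRF3, ranged from 184 to 266 CPM in control (median 209) and from 189 to 243 CPM in gRNA (median 200), with a log2 fold change of -0.01 (SE 0.10).

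Recycling and rescue genes overlapped between the groups too. Abce1, for the recycling ATPase, ranged from 180 to 340 CPM in control and from 232 to 296 CPM in gRNA, with a log2 fold change of 0.01 (SE 0.12). Pelo, whose product Pelota opens stalled ribosomes and those left in 3′UTRs, was the least abundant of the list, at 4.25 to 8.72 CPM in control and 5.19 to 8.98 CPM in gRNA (log2 fold change 0.15, SE 0.13). Its partner Hbs1l had a log2 fold change of -0.02 (SE 0.06). Eif2d, which acts on post-termination subunits, had 0.12 (SE 0.08).

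The ends of the list were Gtpbp2, a GTPase of the rescue pathways, and Ascc3, a helicase that takes apart collided ribosomes. Gtpbp2 ranged from 62.9 to 107 CPM in control and from 62.2 to 83.7 CPM in gRNA, with a log2 fold change of -0.17 (SE 0.09). Ascc3 ranged from 59.2 to 148 CPM in control and from 74.2 to 163 CPM in gRNA, with a log2 fold change of 0.17 (SE 0.10). Both groups overlapped in each gene, and the edgeR adjusted p was 0.9998 for both.

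Genes whose translation is known to pass or recode a stop codon were not called either, nor were ribosomal protein and histone genes. Of 14 genes with reported stop codon readthrough 10 were tested, 3 above and 7 below 0, with a median log2 fold change of -0.08; the most abundant, Ago1, an Argonaute of RNA silencing, had -0.09 (SE 0.09). Of 5 genes with programmed frameshifting 4 were tested and all lay below 0, with a median of -0.10 (-0.13 in batch 1 alone and 0.01 in batch 2 alone); the most abundant, the retrotransposon-derived Peg10, had -0.04 (SE 0.14). Of 24 genes linked to selenoproteins, which insert selenocysteine at UGA, 20 were tested, 8 above and 12 below 0, with a median of -0.06; the most abundant, the thioredoxin reductase Txnrd1, had -0.06 (SE 0.10). Cytosolic ribosomal protein genes had 84 tested, 7 above and 77 below 0, with a median of -0.09 (-0.12 in batch 1 alone and -0.05 in batch 2 alone). The most abundant, Rpl4, had -0.12 (SE 0.15), and -0.22 to 0.02 with 1 library left out. Histone genes had 58 tested, 7 above and 51 below 0, with a median of -0.15. The most abundant, H1f0, had -0.14 (SE 0.09). Over all 17704 genes tested, 8441 lay above 0. Genes of a list are measured in the same libraries and can vary together, so these counts are a description. In these 5 lists 0 genes were called and 0 passed an unadjusted p of 0.05. Whether these genes hold footprints past their stop codons was not analysed here.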

How the data were processed

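RNA-seq values are raw counts per Ensembl gene on GRCm39, made by the authors with Trimmomatic, STAR, SAMtools and HTSeq, per the submitters' processing notes. Their versions and the strand setting are not in the sources used. The 5 HTSeq summary lines were left out. Footprints were handled with cutadapt 5.2, UMI-tools 1.1.6 and STAR 2.7.10b, per the submitters' processing notes. Which tool placed the P-sites is unknown from these sources. The P-site table that the authors deposited lists footprints of 26 to 32 nt by transcript, position and region. It holds 0 identical entries, so identical footprints count once.

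Entries were counted by library with Python 3.11.15, numpy 2.4.6 and pandas 2.3.3, and frames from the deposited distance to the stop. Runs of 6 occupied positions found shared footprints, and this step was tested on simulated data. Representatives were taken in order of coding entries, skipping any transcript that shared a run with one already taken. Transcripts were described in full for the most 3′UTR entries, the highest share and the most in-frame entries within 100 nt; of these, 4 are named because the files do not pair transcripts with genes. RNA counts were tested with edgeR 4.0.16 (TMM, minimum count 10, batch term, Benjamini-Hochberg adjustment over all genes) and DESeq2 1.42.0 in R 4.3.3. Symbols were matched for 51880 of 57132 genes; in the other lists the most abundant member is named. Members and lists were chosen with earlier results of these data known.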

Additional observations from a re-analysis of the deposited data

Results flagged for a closer look

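In 80 groups of 6 RNA-seq libraries screened for a library far from the others, 4 stood out; by chance about 1 in 20 groups would. Gspt2, an eRF3 gene, was at 46.4 CPM in control library 6, with the nearest control at 43.0 CPM. Ascc2, of the complex that takes apart collided ribosomes, was at 108 CPM in control library 3, with the nearest at 96.8 CPM. Ago1 was at 399 CPM in control library 6, with the nearest at 287 CPM. Txnrd1 was at 359.5 CPM in control library 2, with the nearest at 269 CPM.

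Transcripts without an annotated coding sequence held 29.3% of all footprint entries, which enter no share given above because a 3′UTR cannot be placed on them. Of the tested 3′UTR entries not found in another coding sequence, 3697 also stood on such transcripts.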

How the results depend on the processing

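Medians over the 4 libraries are given. The 3′UTR share was 6.88%, and 7.99% with 1 entry per library, length, coding length and distance from the stop; transcripts with over 50% in the 3′UTR were then 8.16%, against 6.92%. With the P-site 12 nt from the 5′ end, 42.5% in place of 25.9% were in frame at 1 to 30 nt, and 38.3% in place of 30.04% over the 3′UTR. Both turn from below to above equal shares of the frames. With that offset only 11.7% to 18.8% of P-sites in coding sequences were in frame, so its in-frame class is not the one that coding footprints favour. Each transcript counted once gave 30.6% at 1 to 30 nt. Transcripts over 50% were 6.29% with 28 to 30 nt footprints and 6.39% with at least 50 P-sites. The following were chosen after seeing the data. At 12 nt the share of shared entries in frame in the other coding sequence minus that in their own frame was -26.3 percentage points, against 17.8, a reversal. Representative transcripts gave a share of 1.43%, 34.9% and 34.2% in frame, 11.1% within 100 nt against 16.4%, -14.7 percentage points of 31 to 32 nt footprints against -2.503, and 0.245% of transcripts over 50%. Without their top transcript, the values were 0.784%, 34.9%, 33.2%, 21.7%, -15.5 and 0.229%. Coding lengths divisible by 3 gave 15.4% within 100 nt.

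Leaving out each library gave 6.74% to 7.02% for the share, 24.6% to 27.2% and 29.5% to 30.6% in frame, 15.8% to 17.0% within 100 nt, -2.82 to -2.19 percentage points, 6.34% (without library 1) to 6.96% of transcripts over 50%, 74.9% (without library 1) to 81.9% of entries in another coding sequence, against 80.5%, 1.27% to 1.56% for the representative share, and 15.4 to 20.3 percentage points for shared entries in frame, other minus own. Runs of 5, 8 or 10 positions gave 79.1% to 80.9% and 1.44% to 1.496%. In RNA-seq, 1 of 37217 genes was called with no filter on low counts, and 0 by DESeq2, without the batch term, and in either batch alone. Uncalled values near 0 differed in sign between the batches alone, among them Etf1 (-0.09 and 0.09), Abce1 (-0.07 and 0.11) and the median of the frameshift list (-0.13 and 0.01). No paired analysis was possible because the library names in the P-site table match no label and the RNA-seq labels give no replicate numbers.

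Depth limits the frame at the stop: in representative transcripts, libraries 2, 3 and 4 held 30 to 41 entries there. Identical footprints count once, which limits how many entries a dense stretch can hold.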
